A study of Mus musculus with 7 samples.

Results

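The genes described here belong to the growth hormone (GH) and insulin-like growth factor 1 (IGF1) axis. They are the 10 genes with the symbols Ghr, Igf1, Igf1r, Igfbp2, Igfbp3, Igfbp4, Igfbp5, Igfbp6, Igfbp7 and Socs2, found by Ensembl identifier among the 43346 genes in the deposited counts. They were chosen by name, with earlier results of these data known. Total RNA was sequenced from tibial growth plates of 7 male F1 mice, 21 days of age, from a cross between the inbred strains C57BL/6J (B6) and CAST/EiJ (CAST). No mouse was treated, and all 7 formed a single group of replicates, numbered 1, 2, 3, 4, 5, 7 and 8 in the labels. Each F1 mouse carries 1 B6 and 1 CAST copy of every autosomal gene, so the comparison was of the CAST with the B6 allele within the same mice. Such a difference between alleles is called allele-specific expression (ASE).

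GH from the pituitary binds its receptor, GHR, on the cell surface and activates the kinase JAK2, which phosphorylates STAT5 and thereby induces Igf1. SOCS2 is induced by the same signal and limits it at the receptor. IGF1 acts through the receptor tyrosine kinase IGF1R, and the IGF binding proteins (IGFBP) hold the ligand in the circulation and the matrix, where they can restrain or aid its action. In the growth plate, the cartilage at the ends of long bones, both hormones promote lengthening. A strain used elsewhere in the study for mapping femur length, C57BL/6J-hg/hg, lacks Socs2 through a deletion, whereas the labels give the B6 parent of these F1 mice as C57BL/6J.

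The deposited totals ranged from 14098019 counts in mouse 7 to 37849667 in mouse 5, with a median of 27603769. The mean total was 3.94 times the 6700000 read pairs per sample given in the labels, and how lanes and read ends were summed is not given in the sources used here, so a count may not be an independent read. On autosomes, 49.5% ± 0.128 (SD, n = 7) of counts came from the B6 allele. X-linked counts were 90.2% to 91.6% B6 and mitochondrial counts 99.98% to 99.99% B6, in all 7 males. Males take the X chromosome and mitochondria from the mother, so by the X-linked and mitochondrial shares the B6 allele was the maternal one. The labels do not give the direction of the cross. With no reciprocal cross, strain and parent of origin cannot be told apart. With a B6 X chromosome in these males, X-linked counts given to CAST were wrongly assigned or split, outside regions shared with the Y chromosome. How much such assignment shifted autosomal allele shares, including those of the axis genes, was not tested. The labels name chondrocytes, and the study's methods describe whole dissected growth plates. Every marker of 11 cell type lists was detected in all mice, with no value under 10 counts. The 10 markers of resting and proliferating chondrocytes summed to 57490 to 104229 CPM (counts scaled to the same library size), those of osteoblasts to 71738 to 130151 CPM, and those of erythroid cells to 7676 to 18551 CPM. The 3 abundant RNAs Rn7s1, Rn7s2 and Rn7sk took 15.5% to 23.8% of the counts.

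Reference sequence before a RefSeq start of a few axis genes is shown to place these starts in the genome, and no CAST sequence was compared. RefSeq promoters (GRCm38.p6, 250 bases before to 50 after a start) were matched for 9 of the 10 genes and gave 11 promoters. Socs2 was not matched. Each window below is 30 bases long, written 5′ to 3′ on the strand of the gene, with the matched motif in capitals. The windows belong to Igfbp4 and Igfbp7, the members called with the largest differences between alleles, and to the IGF1 receptor and its ligand. The Igf1 window lies inside the gene as annotated (87858265 to 87937042), so its start is not the first start of the gene. The Igf1r promoter (67952007 to 67952306) lies wholly before the gene as annotated, which begins at 67952827, so its RefSeq start is not the annotated one.
Igfbp4, TATAAA starting 28 bases before the start, chr11:99041204-99041233, plus strand: ccagggggccggTATAAAgtcccgggagcc
Igfbp7, GGGCGG starting 44 bases before the start, chr5:77408072-77408101, minus strand: ccacggagcaccGGGCGGggcagcggcttt
Igf1r, GGGCGG starting 26 bases before the start, chr7:67952219-67952248, plus strand: ggggccgacgcgGGGCGGcgggagcgctga
Igf1, CCAAT on the opposite strand starting 142 bases before the start, chr10:87860957-87860986, plus strand: ctgcctagagcgATTGGtacacacagggcg

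Both strands were searched for 4 motifs. The STAT5 motif TTCNNNGAA was found in 0 of the 11 promoters and in 8.30% of the 32851 mouse promoters in the same table. TATAAA was found in 3 promoters, those of Igfbp4, Ghr and Igfbp6, against 13.6% of all promoters. GGGCGG was found in 4, those of Igfbp2, Igfbp7, Igf1r and Ghr, against 35.7%, and CCAAT in 4, of Igf1, Igfbp6 and both Ghr promoters, against 37.4%. A GGGCGG and a CCAAT match overlapped in 1 Ghr promoter. The promoters of Igf1r, Igfbp7, Igfbp3 and Igfbp4 had 76.0%, 73.3%, 71.7% and 71.3% G and C bases, and 48, 33, 37 and 27 CG pairs. The matched Igf1 promoter, which lies inside the gene, had 52.3% and 6 CG pairs, close to the median of all promoters, which was 52.7% and 7. A match is a description of the letters in this window and not of a bound site.

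The axis genes covered a wide range of levels, and the binding proteins Igfbp7, Igfbp5, Igfbp4 and Igfbp6 were the most abundant. Levels between genes were compared as CPM, scaled by TMM factors (edgeR's correction for library composition), per kb of exon. In these bulk samples, fewer cells of a type and less RNA per cell cannot be told apart. Igfbp7, which binds IGF with low affinity, was highest at 113 ± 13.1 CPM per kb (SD, n = 7 mice, as for every level below). Igfbp5, a binding protein held in bone and cartilage matrix, followed at 86.4 ± 14.6 CPM per kb. Igfbp4, whose product is cleaved by the protease PAPPA, was at 58.5 ± 5.08 CPM per kb, and Igfbp6, which prefers IGF2, was at 36.5 ± 7.81 CPM per kb. Igfbp3, the main carrier of IGF1 in serum, stood at 13.0 ± 2.46 CPM per kb.

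The ligand Igf1 had a level of 8.03 ± 1.46 CPM per kb, above both receptors. Igf1r was at 3.07 ± 0.337 and Ghr at 2.51 ± 0.337 CPM per kb. Igfbp2 was at 1.90 ± 0.634 and Socs2 at 1.25 ± 0.196 CPM per kb. Igfbp1, the direct neighbor of Igfbp3 on chromosome 11 (3539 bases apart), had 2 counts in mouse 2 and 0 in the other 6 mice, where a count of 0 allows up to 3 counts.

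Of the 9 steps between neighbors in this order, 7 held in all 7 mice. Igf1r was above Ghr in 6 of 7 mice, with a mean difference of 0.29 ± 0.322 on the log2 scale (SD, n = 7), smaller than its spread. Ghr was above Igfbp2 in 6 of 7 mice, by 0.45 ± 0.375. These orders depend on the length used: per kb of the longest transcript instead of all exons, Igf1r was above Ghr in 1 of 7 mice and Igfbp2 above Socs2 in 2 of 7. The 6 steps not named here held in all 7 mice with both lengths.

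**Figure D1:**
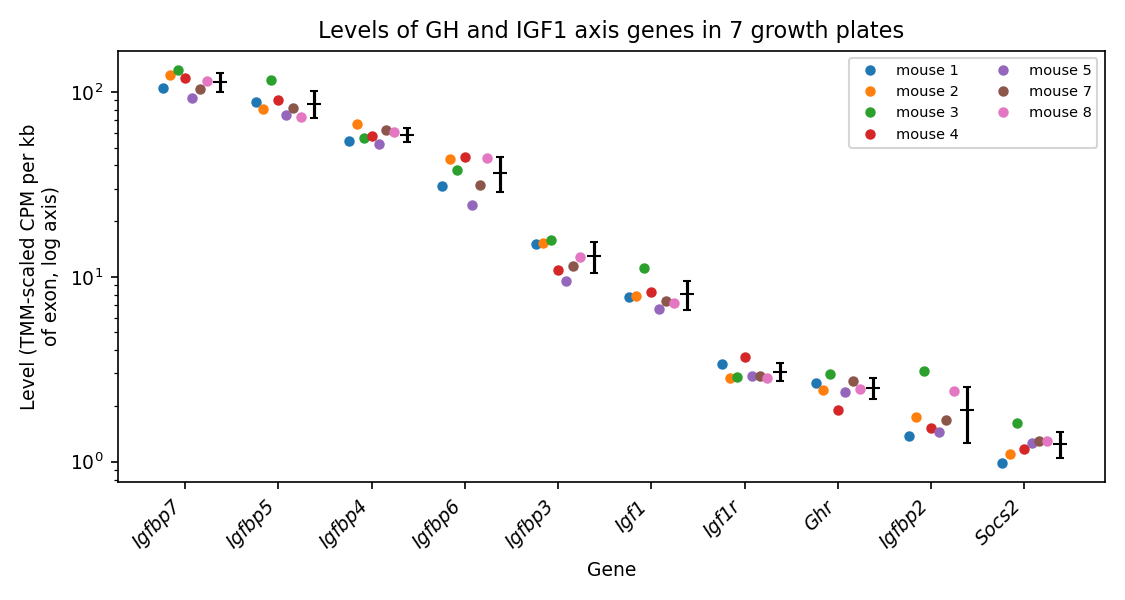
Level of each axis gene (TMM-scaled CPM per kb of exon, log axis) in each of 7 mice, one colored point per mouse, with the mean and SD as black bars. Igfbp7 averaged 113 and Socs2 1.25 CPM per kb, and mouse 3 was the highest mouse for 7 of the 10 genes.

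The coefficient of variation of CPM was 8.68% for Igfbp4, 11.7% for Igfbp7, 13.4% for Ghr and 15.7% for Socs2. It was 16.9% for Igfbp5, 18.2% for Igf1, 21.4% for Igfbp6 and 33.5% for Igfbp2, and the values of Igf1r and Igfbp3 lay among these. The median was 13.5% over 15111 genes with no mouse under 10 counts, and the middle 50% of them lay between 9.53% and 19.5%. Igfbp2 and Igfbp6 were thus above that range, and Igfbp2 was measured on the fewest counts, 92.1 on average.

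Igf1 had its highest level in mouse 3, with 110 CPM, against 65.9 CPM in mouse 5, the lowest, and a median of 77.0 CPM. Igfbp5 was also highest in mouse 3, at 700 CPM, and lowest in mouse 8, at 440 CPM, with a median of 491 CPM. In both genes mouse 3 stood above the next mouse by more than the other 6 mice spanned. Igfbp2 ranged from 2.56 CPM in mouse 1 to 5.74 CPM in mouse 3 (median 3.09 CPM), and Socs2 from 9.42 CPM in mouse 1 to 15.4 CPM in mouse 3 (median 12.0 CPM). Ghr ranged from 17.1 CPM in mouse 4 to 26.8 CPM in mouse 3 (median 22.3 CPM).

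Igf1r had a different profile, with 61.9 CPM in mouse 4, 57.0 CPM in mouse 1 and 47.5 to 49.0 CPM in the other 5 mice. Igfbp3 ranged from 29.8 CPM in mouse 5 to 49.6 CPM in mouse 3 (median 39.9 CPM). Igfbp4 ranged from 230 CPM in mouse 5 to 295 CPM in mouse 2 (median 254 CPM). Igfbp6 lay between 27.2 CPM in mouse 5 and 49.5 CPM in mouse 4, and Igfbp7 between 111 CPM in mouse 5 and 158 CPM in mouse 3, with medians of 41.9 and 139 CPM. Mouse 5 was therefore the lowest mouse for 5 genes, Igf1, Igfbp3, Igfbp4, Igfbp6 and Igfbp7. The share of all genes with mouse 5 lowest or mouse 3 highest is not given here, so such counts are not particular to the axis genes.

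**Figure D2:**
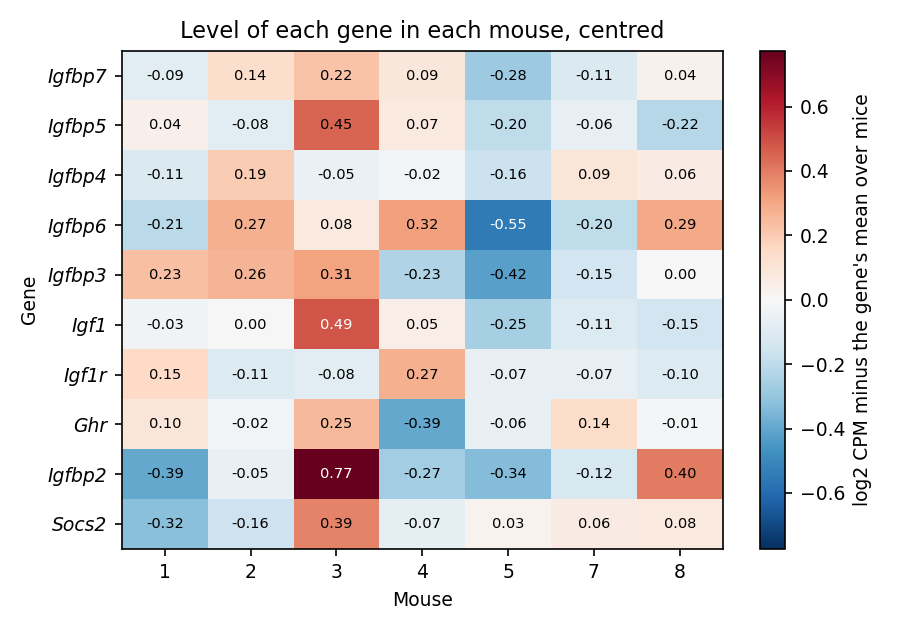
Heat map of log2 CPM minus the mean of each gene over mice, with genes in rows, the 7 mice in columns and the value written in each cell. In mouse 3, Igfbp2, Igf1 and Igfbp5 stood 0.77, 0.49 and 0.45 above their means, and in mouse 5 Igfbp6 stood lowest.

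Mice 3 and 5 also stood at opposite ends for erythroid markers. Their sum was lowest in mouse 3 (7676 CPM) and highest in mouse 5 (18551 CPM). The summed B lineage markers were lowest in mouse 3 (154 CPM) and highest in mouse 7 (355 CPM), neutrophil markers ranged from 1525 CPM in mouse 2 to 3052 CPM in mouse 5, and endothelial markers from 261 CPM in mouse 8 to 346 CPM in mouse 3. None of these markers was at 0. Over the 7 mice, log2 CPM of the 10 genes was correlated with the mean log2 level of each of the 11 lists, giving 110 relations. None passed an adjusted p of 0.20 (exact two-sided permutation test over all orders of the mice, Benjamini-Hochberg over 166148 relations of all genes, smallest adjusted p = 0.337). At an unadjusted p under 0.05 there were 10 by Pearson's r, or 9.09%, against 9.79% of the relations of all genes, and 9 by Spearman's rho, against 8.72%.

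By Pearson's r, Igfbp3 had the strongest of these relations, lower where neutrophil markers were higher (r = -0.97, exact permutation p = 0.0012, adjusted p = 0.337, and rho = -0.93, exact permutation p = 0.0067, adjusted p = 0.416). Without the 2 mice farthest from the median of the marker list, r was -0.96. Igf1, the strongest by rho, was lower where B lineage markers were higher (r = -0.94, exact permutation p = 0.0026, adjusted p = 0.340, and rho = -0.96, exact permutation p = 0.0028, adjusted p = 0.373), and r was -0.78 without mice 3 and 5. With CPM not scaled by TMM factors, r was -0.84 for Igfbp3 and -0.70 for Igf1. The strongest relation was then Igfbp7 with neutrophil markers (r = -0.87, exact permutation p = 0.0050, adjusted p = 0.305). The part of blood cells in the levels of these genes was not tested.

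Among the 11763 genes with at least 100 counts on average, the genes with the mouse-to-mouse profile most like each signaling gene were found by the root-mean-square difference of centered log2 CPM over the 7 mice. For Igf1 they were the long noncoding RNA Mir99ahg (0.0318), the gene for the extracellular protein Igsf10 (0.0514) and Igfbp5 (0.0582), against a median of 0.272 for all genes. For Ghr they were Eif1ax, a translation initiation factor (0.0325), Phf20l1 (0.0377) and the helicase gene Dhx36 (0.0403), against a median of 0.246. For Socs2 they were the ephrin receptor Epha4 (0.0682), Vps41 (0.0691) and Sdccag8 (0.0756), against 0.260. These are descriptions over 7 mice, with no test, and all genes of a mouse come from 1 library and share its depth.

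In the comparison of alleles, 6 of the 10 axis genes were called at an FDR < 0.20, against 34.5% of all 20239 genes tested (edgeR likelihood-ratio test, Benjamini-Hochberg over all 20239). More counts were assigned to the B6 allele for Igfbp7, Igfbp4, Igfbp3, Igfbp6 and Igf1r, and more to the CAST allele for Socs2. Among all genes tested, 18.5% were called in the B6 direction and 16% in the CAST direction. These include X-linked and mitochondrial genes, which males inherit from 1 parent, so 2 alleles were not compared there. With autosomal genes only, 6206 genes were called, 3197 toward B6 and 3009 toward CAST, and 6 members were called. In 7 of the 10 genes the B6 count exceeded the CAST count in all 7 mice, against 14% of all genes, while 0 of the 10 had more CAST counts in all 7, against 10.6%. Against autosomal genes of similar depth, of 7 members averaging at least 1000 counts, 5 were called B6-higher, against 13.3% of 3302 such genes, and 6 were B6-higher in every mouse, against 19.6%. The median log2 fold change (CAST over B6, negative where B6 was higher) was -0.18 over the 10 genes and 0.01 over all genes. The 10 genes are not independent of each other in mice or libraries, and these shares are given as a description. Counting error sets the precision of a share in a single mouse: the 95% Wilson half-width was 0.694 to 1.16 points for Igfbp5, 1.01 to 1.52 for Igfbp4, 3.35 to 5.45 for Ghr, 4.38 to 7.14 for Socs2 and 7.02 to 13.1 for Igfbp2.

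**Figure D3:**
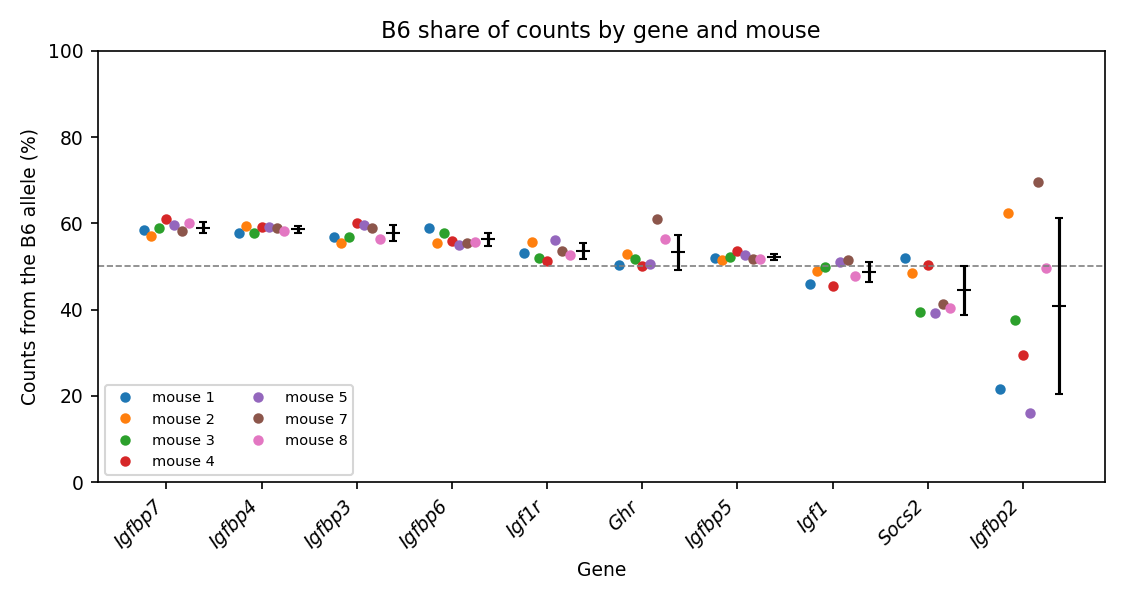
Percentage of the counts of each axis gene assigned to the B6 allele in each of 7 mice, one colored point per mouse, with the mean and SD as black bars and a dashed line at 50%. Igfbp7, Igfbp4, Igfbp3 and Igfbp6 lay above 54% in every mouse, whereas Igfbp2 spread from 16.0% to 69.6%.

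Igfbp4 (chromosome 11, 99041244 to 99054392, plus strand) and Igfbp5 had the least variable allele shares across mice among the 10 genes, with SDs of 0.735 and 0.754 points. The B6 share of Igfbp4 was 57.7% at the lowest, 58.8% at the median and 59.4% at the highest mouse, from 3970 ± 1123 B6 and 2807 ± 786 CAST counts (SD, n = 7). No mouse came near equal shares. The log2 fold change was -0.49 (SE 0.0915, FDR = 1.38e-06, edgeR), or 1.40-fold higher from B6. The B6 allele had 136 to 175 CPM and the CAST allele 94.0 to 120 CPM, so their ranges did not overlap, as in 6.33% of all genes in this direction and 3.62% in the other.

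Igfbp7 (chromosome 5, 77349240 to 77408041, minus strand) differed most among the members called. B6 shares of 57.1%, 58.9% and 60.9% were the lowest, median and highest, from 2111 ± 597 B6 and 1470 ± 440 CAST counts. This was a log2 fold change of -0.51 (SE 0.104, FDR = 1.11e-05, edgeR), or 1.42-fold. Here too all B6 values, 66.3 to 93.1 CPM, lay above all CAST values, 45.1 to 64.9 CPM. Igfbp7 overlaps 85 bases of Polr2b, a polymerase subunit gene on the opposite strand with 650 counts on average, and 7085 bases of the antisense gene Gm34648, for which no counts were used here.

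Igfbp3 (chromosome 11, 7206086 to 7213923, minus strand) gave B6 shares of 55.4% to 60.2% with a median of 56.9%, from 622 ± 221 B6 and 462 ± 181 CAST counts. The log2 fold change was -0.42 (SE 0.142, FDR = 0.0160, edgeR). Igfbp6 (chromosome 15, 102144362 to 102149511, plus strand) gave 54.9% to 58.8% with a median of 55.6%, from 590 ± 158 and 457 ± 119 counts, and a log2 fold change of -0.35 (SE 0.154, FDR = 0.0875, edgeR). All 7 mice had more B6 counts for both genes, but because the mice differed in level, the ranges of B6 and CAST values in CPM overlapped.

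Igfbp5 (chromosome 1, 72857932 to 72874884, minus strand), the gene with the most counts of the axis, showed a small difference in the same direction. B6 shares were 51.4% to 53.7% with a median of 52.0%, from 7192 ± 2504 B6 and 6575 ± 2283 CAST counts, and every mouse was above 50%. The log2 fold change of -0.11 (SE 0.123) was not called with alleles compared across mice (FDR = 0.613). A fit that pairs the alleles of each mouse (a replicate block) called it (FDR = 4.81e-11, or 0.0019 by the quasi-likelihood test). Its direct neighbor Igfbp2 (72824503 to 72852474, plus strand), 5457 bases away, did not share this pattern.

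The Igfbp2 allele ratio varied from mouse to mouse. The B6 share was 16.0% in mouse 5 (95% Wilson interval 10.4% to 24.4%), 21.7% in mouse 1 (13.8% to 31.0%), 29.4% in mouse 4 (18.3% to 42.3%) and 37.6% in mouse 3 (30.4% to 45.1%). It was 49.8% in mouse 8 (40.5% to 59.5%), 62.4% in mouse 2 (52.2% to 71.5%) and 69.6% in mouse 7 (54.3% to 80.5%). The intervals of 4 mice lay below 50% and those of 2 mice above it, on 45 to 163 counts a mouse. These intervals cover counting error only and treat each count as an independent read. With counts divided by 3.94, to match the read pairs in the labels, the intervals of 2 mice lay below 50% and those of 0 mice above it. The SD of the log2 ratio was 1.30, against a median of 0.481 among 3379 autosomal genes within 2-fold of its depth, of which 3.76% had an SD as large. Its fold change, 0.50 on the log2 scale (SE 0.355), was not called (FDR = 0.361, and 0.168 without mouse 7).

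The receptors differed little between alleles. Igf1r (chromosome 7, 67952827 to 68233668, plus strand) had B6 shares of 51.2% to 56.1% with a median of 53.1%, from 731 ± 247 B6 and 630 ± 192 CAST counts, and more B6 counts in all 7 mice. Its log2 fold change of -0.18 (SE 0.0973) was called at FDR = 0.180. The call was lost without any of mice 1, 2, 3, 5, 7 and 8 (FDR 0.208 to 0.384) and the replicate block gave FDR = 0.000108. Ghr (chromosome 15, 3317760 to 3583492, minus strand) also had more B6 counts in all 7 mice, but its shares ran from 50.1% in mouse 4 to 56.4% in mouse 8 and 61.1% in mouse 7 (median 51.7%). In 4 of the 7 mice the Ghr share was within 2 points of 50%, while the 95% Wilson intervals of mouse 8 (52.1% to 60.6%) and mouse 7 (55.9% to 65.9%) lay above it (1 mouse with counts divided by 3.94). The log2 fold change of -0.18 (SE 0.119, FDR = 0.336) was not called, and was -0.10 without mouse 7. It was called with the replicate block (FDR = 0.116, or 0.203 by the quasi-likelihood test, above the threshold).

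The ligand gene Igf1 (chromosome 10, 87858265 to 87937042, plus strand) was expressed from both alleles at nearly equal levels. B6 shares were 45.4% to 51.4% with a median of 49.0%, from 1028 ± 368 B6 and 1080 ± 365 CAST counts, and CAST counts were higher in 5 of 7 mice. The log2 fold change was 0.09 (SE 0.129, FDR = 0.733), and FDR = 0.170 with the replicate block, or 0.237 by the quasi-likelihood test. The antisense gene Igf1os overlaps it over 5117 bases but had 4.43 counts on average.

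Socs2 (chromosome 10, 95385362 to 95417180, minus strand) was the only member called in the CAST direction. The B6 share was 39.4%, 39.2%, 41.4% and 40.3% in mice 3, 5, 7 and 8, and it was 51.9%, 48.6% and 50.4% in mice 1, 2 and 4. The 95% Wilson intervals of mice 3, 5, 7 and 8 lay below 50%, and those of mice 1, 2 and 4 included it. With counts divided by 3.94, 2 mice lay below 50%. Counts were 137 ± 40.3 from B6 and 177 ± 72.7 from CAST, for a log2 fold change of 0.37 (SE 0.145, FDR = 0.0455, edgeR), or 1.29-fold. CAST counts were higher in 5 of 7 mice (sign-flip permutation of the log2 ratios, exact and two-sided, p = 0.0938, adjusted over all genes 0.226). The spread of its log2 ratio, SD 0.327, was as large in 32.2% of genes of like depth. Counts from the B6 allele of Socs2 ranged from 74.0 to 185 in the 7 mice, so neither copy was missing. The total was not whole (tolerance 1e-04) in 6 mice, a sign of reads divided among genes, and it was not whole in 7 mice for Igfbp4, 3 for Igf1 and 1 for Igfbp7.

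For a single gene, the sign-flip test of 7 mice cannot give a p below 0.0156, which is 0.0635 after adjustment over all genes. A gene with the same direction in all 7 mice gets this smallest p whatever the size of its difference. The 7 members with more B6 counts in every mouse, Ghr, Igf1r, Igfbp3, Igfbp4, Igfbp5, Igfbp6 and Igfbp7, therefore all had it, which adds nothing to their direction. In the fit with the replicate block, 9 of the 10 genes were called, against 45.3% of all genes, and with the block and the quasi-likelihood test 7, against 40.3%. Igfbp2 was the only member called by neither.

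Beyond these members, 67 further genes of the pathway were grouped in 4 lists, and 61 of them could be tested. At an FDR < 0.20, 16 were called, or 26.2% against 34.5% of all genes, 5 toward CAST and 11 toward B6. With autosomal genes only, 15 were called, 10 of them toward B6, beside 6206 of all autosomal genes, 3197 of them toward B6. With the replicate block 29 were called, or 47.5% against 45.3% of all genes. Their median log2 fold change was 0.02, near that of all genes.

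In the list of GH receptor signaling, 4 of 16 genes tested were called, or 25% against 34.5% of all genes. Jak2, the kinase bound to GHR, was the single gene toward CAST, with B6 shares of 36.0% to 43.8% and CAST higher in all 7 mice (log2 fold change 0.54, SE 0.104, FDR = 2.41e-06, edgeR). Cish, a STAT5 target related to Socs2, went toward B6 in all 7 mice, with shares of 54.4% to 69.2% (log2 fold change -0.54, SE 0.184, FDR = 0.0187, edgeR), the opposite direction to Socs2. The adaptor Sh2b2 was also higher from B6 (-0.40, SE 0.160, FDR = 0.0550). Stat5a and Stat5b had log2 fold changes of 0.06 and 0.04 and were not called (FDR = 0.811 and 0.896). Gh itself was called toward B6 (FDR = 0.0032) on 2 to 14 counts a mouse, a pituitary gene near the limit of detection here, and no fold is given for it.

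Among IGF ligands, receptors and adaptors, 6 of 12 were called (50% against 34.5% of all genes), and 3 of these are known imprinted genes, expressed from a single parental copy. Igf2, expressed from the paternal copy in most tissues, had B6 shares of 9.38% to 12.6%. Igf2r, the receptor that clears IGF2, had 97.4% to 98.0%, and Grb10, an inhibitor of the IGF1 receptor, had 91.0% to 95.1%, both toward the other copy. The adaptor genes Gab1, Irs2 and Irs1 were higher from B6 in all 7 mice, with log2 fold changes of -0.33 (SE 0.0940, FDR = 0.0036), -0.36 (SE 0.114, FDR = 0.0103) and -0.18 (SE 0.0829, FDR = 0.118). The Irs1 call was lost without mouse 2 (FDR = 0.228) or mouse 5 (FDR = 0.259). The insulin receptor gene Insr had a log2 fold change of -0.13 and was not called (FDR = 0.323).

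Among IGF carriers and proteases, 4 of 7 were called (57.1% against 34.5% of all genes), 3 of them toward CAST (42.9% against 16%). Stc2, an inhibitor of PAPPA, had B6 shares of 38.9% to 44.6% (log2 fold change 0.48, SE 0.134, FDR = 0.0021, edgeR) and Htra1, a protease that cleaves IGFBP, 41.7% to 47.0% (0.35, SE 0.105, FDR = 0.0054), with CAST higher in all 7 mice for both. Igfals, the acid-labile subunit of the serum IGF complex, was higher from CAST in 6 of 7 mice (0.60, SE 0.215, FDR = 0.0260) on few counts, 31.6 ± 14.2 from B6 and 47.2 ± 23.8 from CAST. Pappa, the protease of IGFBP4, was higher from B6 in 6 of 7 mice (-0.23, SE 0.106, FDR = 0.110), and the call was lost without mouse 1 (FDR = 0.345), mouse 2 (FDR = 0.266) or mouse 8 (FDR = 0.207).

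In the PI3K, AKT and mTOR list, 2 of 26 genes were called (7.69% against 34.5% of all genes), and 10 with the replicate block (38.5% against 45.3%). Tsc2, an inhibitor of mTOR, was higher from B6 in all 7 mice, with shares of 51.5% to 56.2% (-0.22, SE 0.0867, FDR = 0.0532). Foxo4, the other gene called, is X-linked and had 99.0% to 99.9% B6 counts in these males. None of the 4 lists was tested as a set.

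**Figure D4:**
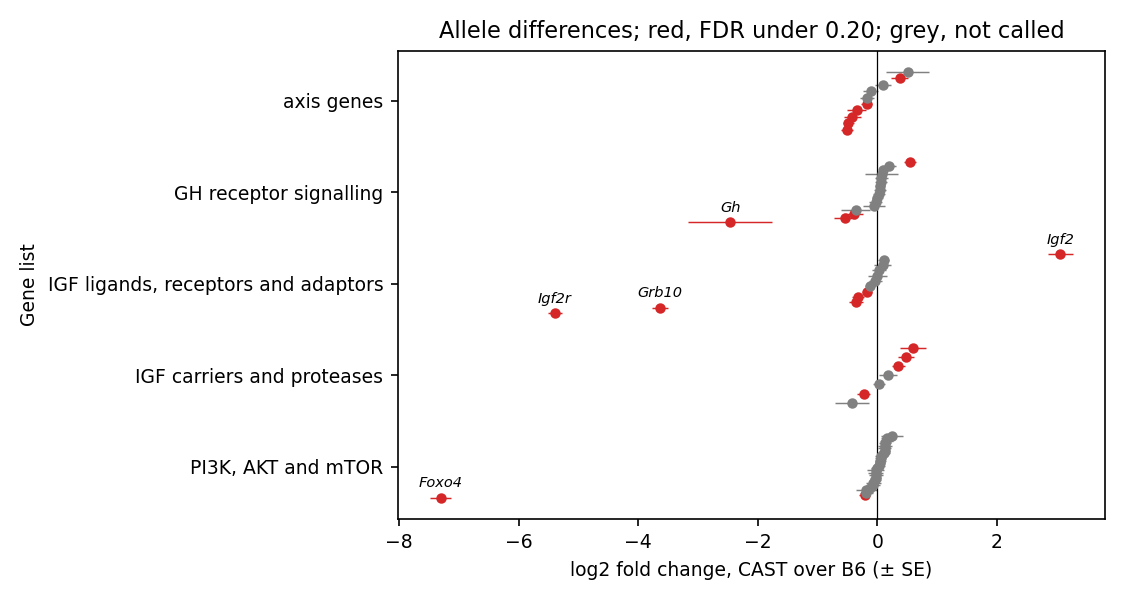
Log2 fold change between alleles (CAST over B6, with SE as horizontal lines) for the axis genes and the genes of 4 pathway lists, red where FDR was under 0.20 and grey otherwise. Igf2, Igf2r, Grb10, Foxo4 and Gh lie far from 0, and all other genes lie between -0.54 and 0.60.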

How the data were processed

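The 7 F1 mice (B6 × CAST, male) were replicates of 1 group. The authors used Bowtie, with at most 3 mismatches, on a transcriptome holding both strains' sequences (mm10), and estimated allele counts with EMASE, treating lanes and read ends separately. The deposited values are these estimated counts, not normalized. EMASE splits ambiguous reads between alleles and genes, so intervals that treat counts as independent reads are too narrow.

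As in the study, a gene was tested if each mouse had a count above 0 for 1 allele or both, with values of 5e-10 or less taken as 0 (a choice made after the values were seen). Counts were rounded and the CAST and B6 columns compared with edgeR 4.0.16 (R 4.3.3, TMM factors, glmFit and glmLRT). An FDR < 0.20 over all 20239 genes was a call. The study used the same threshold for genes of its Feml2 region, a locus for femur length, and does not state the set of genes behind its FDR. The SE is the log2 fold change over the square root of the likelihood-ratio statistic. This fit does not pair the alleles of a mouse, so the SE includes differences in level between mice. For Igfbp4 the SE was 0.0915, while the SD of its log2 ratio over the 7 mice was 0.0437. Ratios in sign-flip tests used a pseudocount of 0.5, and marker levels one of 0.1 CPM. The fit was tested on simulated data with 200 changed genes.

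Both alleles of a mouse come from the same animal, so mouse numbers pair the columns. Within mice, deviations of B6 and CAST values from their means correlated by 0.047 to 0.330 (mean 0.184, 15111 genes), against -0.284 to 0.239 between mice. Nothing in the labels gives batches, litters or cages. Any 2 mice differed by more than sampling noise (chi-square divided by its degrees of freedom was 14.4 to 96.4 in the 21 pairs). The values were 26.1 to 39.4 among mice 1, 2 and 3, and 14.4 to 36.5 among mice 5, 7 and 8. Between these 2 sets they were 50.8 to 96.4, and pairs with mouse 4 gave 37.9 to 94.1. For a given difference between mice this value grows with the counts. The lowest values, 14.4 for mice 5 and 7 and 16.2 for mice 7 and 8, include the smallest library (mouse 7, 14098019 counts). These sets were seen in the values, and their part in the correlations and profiles over mice was not tested.

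Genes, coordinates and exon lengths are from GENCODE M21 (GRCm38/mm10), which holds 42462 of the 43346 identifiers. Alternatives were DESeq2 1.42.0, edgeR's quasi-likelihood test, other filters, library sizes, lengths and thresholds, unrounded counts, the replicate block, and each mouse left out. Named genes were all members, pathway genes called (up to 3 in each direction per list, by FDR), the 3 nearest profiles of Ghr, Igf1 and Socs2, and Igfbp1. Irs1, Irs2, Stat5a, Stat5b and Insr were named after their values were seen. Members and lists were chosen with earlier results of these data known.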

Additional observations from a re-analysis of the deposited data

Results flagged for a closer look

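The level of Igf1 in mouse 3, 110.28 CPM, lay far from the other 6 mice, which had 65.9 to 81.5 CPM. The level of Igfbp5 in the same mouse, 700.03 CPM, lay far from the other mice, at 440 to 540 CPM. Both were found by comparing the gap between the extreme mouse and its nearest neighbor with the whole range (Dixon's test at the 95% level). Chance marks about 1 in 20 such sets, or 1.05 of the 21 examined here (level and allele ratio of each of the 10 genes, and library total), and 2 were marked. The 2 are not independent, since both lie in mouse 3 and Igfbp5 was among the 3 genes with profiles nearest to Igf1. Mouse 3 did not stand apart in the allele ratio of either gene, where its B6 shares lay within the range of the other mice.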

How the results depend on the processing

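Of 180 values of the allele log2 fold changes of the 10 members under other settings, 165 stayed on the same side of the threshold, 8 lost the call, 7 gained it and 0 changed direction. The 8 were all for Igf1r, with no filter on low counts (FDR = 0.248), with unrounded counts (FDR = 0.231) and without each mouse but mouse 4. The 7 were Igfbp5 under 3 forms of the replicate block, Ghr under 2, Igf1 under 1, and Igfbp2 without mouse 7. At an FDR < 0.05, 4 members were called, beside 4779 of all 20239 genes tested. The number of members called was 5 or 6 when each mouse was left out. The pathway genes called rose from 16 to 29 with the replicate block, 27 with the block and the quasi-likelihood test, and 30 with the block and 1 library size per mouse, and were 14 to 20 when each mouse was left out. The replicate block changed the call of no other member than Ghr, Igf1 and Igfbp5. All genes called numbered 6279 to 6857 when each mouse was left out, against 6982. Their number was 9171 with the replicate block and 8157 with the block and the quasi-likelihood test. It was 9180 with the block and 1 library size per mouse. With values of 5e-10 or less kept as counts, the 6 members and 16 pathway genes called did not change in number.

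Leaving each mouse out gave log2 fold changes of 0.31 to 0.44 for Socs2 (FDR 0.0143 to 0.165) and 0.32 to 0.73 for Igfbp2. For 16 pathway genes called, 281 of 286 other values kept the call, and the other 5 were for Irs1 and Pappa. Of 30 other values of the levels, 16 moved by more than 1 SD, on leaving out Rn7s1, Rn7s2 and Rn7sk or on using the longest transcript. Few counts limit the values of Igfbp2, Gh and Igfals. With allele counts divided by 3.94, to match the read pairs in the labels (chosen after seeing the data), the mice whose share interval left out 50% fell in number from 6 to 2 for Igfbp2, 4 to 2 for Socs2, 2 to 1 for Ghr and Igf1, 3 to 2 for Igf1r, 7 to 4 for Igfbp5 and 7 to 3 for Igfbp6, and stayed at 7 for Igfbp3, Igfbp4 and Igfbp7.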
